A study of Mus musculus with 19 samples.

Results

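The genes examined were 40 genes of the sarcomere and the mature skeletal muscle fiber, of 48795 genes in the table, taken by symbol from a list that covers the thin filament (10 genes), the thick filament (7), the Z disc (7), calcium handling (11) and energy supply (5). They were followed through RNA sequencing of 19 primary p53/MCA mouse sarcomas, 11 from *Rag2-/-* and 8 from *Rag2+/-* mice. *Rag2* is needed to rearrange antigen receptor genes, so *Rag2-/-* mice lack mature T and B cells, while their *Rag2+/-* littermates, which carry a single intact copy, served as the immunocompetent controls. All mice had received an adenovirus that carries Cas9 and a guide RNA against *Trp53*, then 300 µg of the carcinogen 3-methylcholanthrene (MCA), in the gastrocnemius, a calf muscle, at 6 to 10 weeks of age. Tumors of both genotypes were otherwise untreated and were taken at 70 to 150 mm3. Each library came from 1 tumor, mice of both sexes were used, and the labels do not say how much host muscle a tumor piece held.

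Skeletal muscle contracts when myosin of the thick filament pulls on actin of the thin filament between Z discs. Calcium released from the sarcoplasmic reticulum binds troponin C and frees actin for myosin, and calcium pumps then clear it. Fast and slow fibers build this machinery from different isoforms of troponin, calcium pump and binding proteins, and the mouse gastrocnemius is a mostly fast muscle. A mature fiber is a fused, non-dividing cell, whereas the tumor cells of this sarcoma model divide.

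Promoters are shown for 4 members whose patterns are contrasted below, *Acta1* and *Ckm*, which followed the bulk of the gene set, and the slow troponins *Tnnt1* and *Tnnc1*, which followed it less closely. The sequences are RefSeq windows on GRCm38.p6, written along the gene from 250 bases before to 50 bases after the annotated start, and hold *Acta1* (chr8:123894726-123895025, minus strand), *Ckm* (chr7:19410844-19411143, plus strand), *Tnnt1* (chr7:4515926-4516225, minus strand) and *Tnnc1* (chr14:31208062-31208361, plus strand). Capitals mark matches to the E-box CANNTG, which myogenic factors such as MyoD bind, the MCAT element CATTCC and its reverse complement, the MEF2 site, the CArG box of serum response factor, and TATAAA on the printed strand.
Acta1: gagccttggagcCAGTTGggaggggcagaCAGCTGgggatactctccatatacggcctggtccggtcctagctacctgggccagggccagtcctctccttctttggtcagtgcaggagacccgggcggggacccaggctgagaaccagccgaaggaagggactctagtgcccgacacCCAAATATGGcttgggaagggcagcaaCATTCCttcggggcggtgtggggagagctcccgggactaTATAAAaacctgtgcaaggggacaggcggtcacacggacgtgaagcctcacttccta
Ckm: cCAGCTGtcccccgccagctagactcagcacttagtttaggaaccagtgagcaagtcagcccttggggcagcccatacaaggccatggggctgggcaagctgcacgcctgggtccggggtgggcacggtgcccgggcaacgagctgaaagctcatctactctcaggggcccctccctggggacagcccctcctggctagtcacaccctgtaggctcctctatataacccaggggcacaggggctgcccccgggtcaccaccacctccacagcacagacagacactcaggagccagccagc
Tnnt1: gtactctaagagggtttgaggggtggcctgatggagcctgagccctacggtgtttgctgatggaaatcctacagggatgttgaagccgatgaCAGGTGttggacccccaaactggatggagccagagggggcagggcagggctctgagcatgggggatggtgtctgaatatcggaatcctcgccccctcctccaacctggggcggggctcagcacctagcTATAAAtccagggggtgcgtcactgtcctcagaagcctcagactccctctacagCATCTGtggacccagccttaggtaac
Tnnc1: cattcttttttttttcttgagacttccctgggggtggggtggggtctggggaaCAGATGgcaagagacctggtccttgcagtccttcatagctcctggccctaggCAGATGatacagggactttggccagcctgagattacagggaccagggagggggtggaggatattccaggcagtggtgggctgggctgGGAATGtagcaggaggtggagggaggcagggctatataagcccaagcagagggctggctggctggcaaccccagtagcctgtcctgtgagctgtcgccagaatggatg
*Acta1* held 2 E-boxes, 1 CArG box, 1 MCAT element and 1 TATAAA, *Ckm* 1 E-box, *Tnnt1* 2 E-boxes and 1 TATAAA, and *Tnnc1* 2 E-boxes and 1 MCAT element. No marked motifs overlapped in these windows. Of the 40 members, 27 had an entry, with 32 promoters in all, and 87.5% of these held an E-box, against 72.3% of all 32851 promoters of this length. MCAT stood in 25.0% of the member promoters and 14.7% of all, the CArG box in 12.5% and 1.63% (*Acta1*, *Ldb3*, *Myom1*), the MEF2 site in 9.38% and 1.86% (*Casq2*, *Pvalb*, *Ttn*), and TATAAA in 6.25% and 8.32%. These are matches of letters within 300 bases and were not tested.

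All values are the deposited log2 of upper-quartile normalized FPKM (fragments scaled by transcript length and by library size) with 0.1 added. The genes were detected in every tumor, with 0 of 760 member values at the floor of −3.32. Estimated from the low values, 18 libraries held 24.8 to 33.7 M fragments on genes, and S41 (*Rag2-/-*) held 5.23 M. The fewest estimated fragments for any member in any tumor were 8, for *Tnnc1* in S46. The 40 genes together took 0.259% of the summed FPKM in S48 and 23.9% in S60. In 14 tumors they took at most 6.06%, in S47, and in the other 5 they took 17.1% (S52), 19.1% (S51), 20.7% (S59), 23.8% (S56) and 23.9% (S60). Of these 5 tumors, S51 was *Rag2-/-* and the other 4 were *Rag2+/-*.

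**Figure D1:**
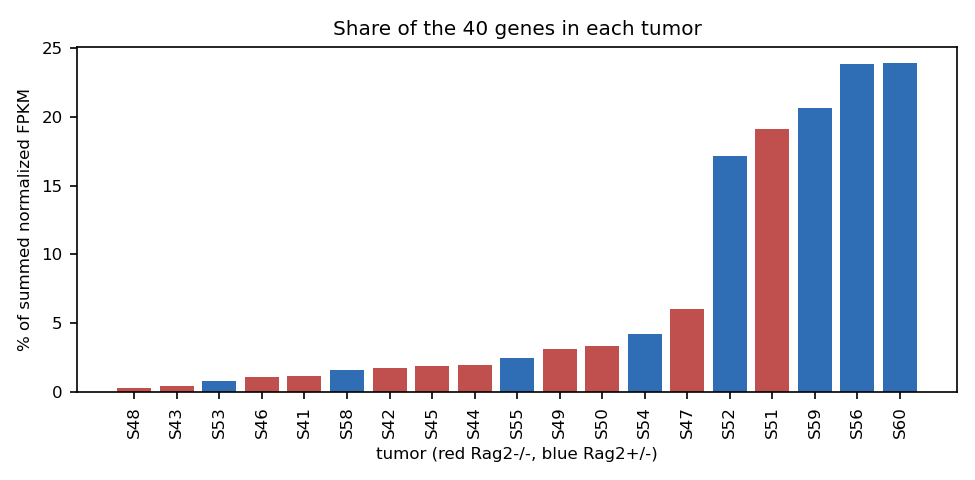
Share of the 40 genes in the summed normalized FPKM (percent, vertical axis) in each of 19 tumors (horizontal axis, ordered by the share; red *Rag2-/-*, blue *Rag2+/-*). The 5 tumors on the right lie between 17.1% and 23.9% and the other 14 at or below 6.06%.

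*Acta1*, skeletal muscle actin and the member with the highest median FPKM (1625), showed the same break. Its values had their widest gap between 11.81 in S47 and 14.24 in S52, with S52, S59, S51, S60 and S56 above it and 14 tumors below. These 5 tumors were picked on *Acta1* itself, so they serve as a description only. In 34 of the 40 members, including *Acta1*, all 5 lay above every one of the other 14, and in 22 members the widest gap parted the same tumors. The share of all tested genes with this order or gap was not counted, so both counts lack a background. The 6 members without that order were the slow troponins *Tnnt1*, *Tnni1* and *Tnnc1*, the cardiac and slow fiber calsequestrin *Casq2*, the calcium pump *Atp2a2* and its regulator *Sln*. S56 was the highest tumor for 32 members, and S48 (*Rag2-/-*) the lowest for 36.

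**Figure D2:**
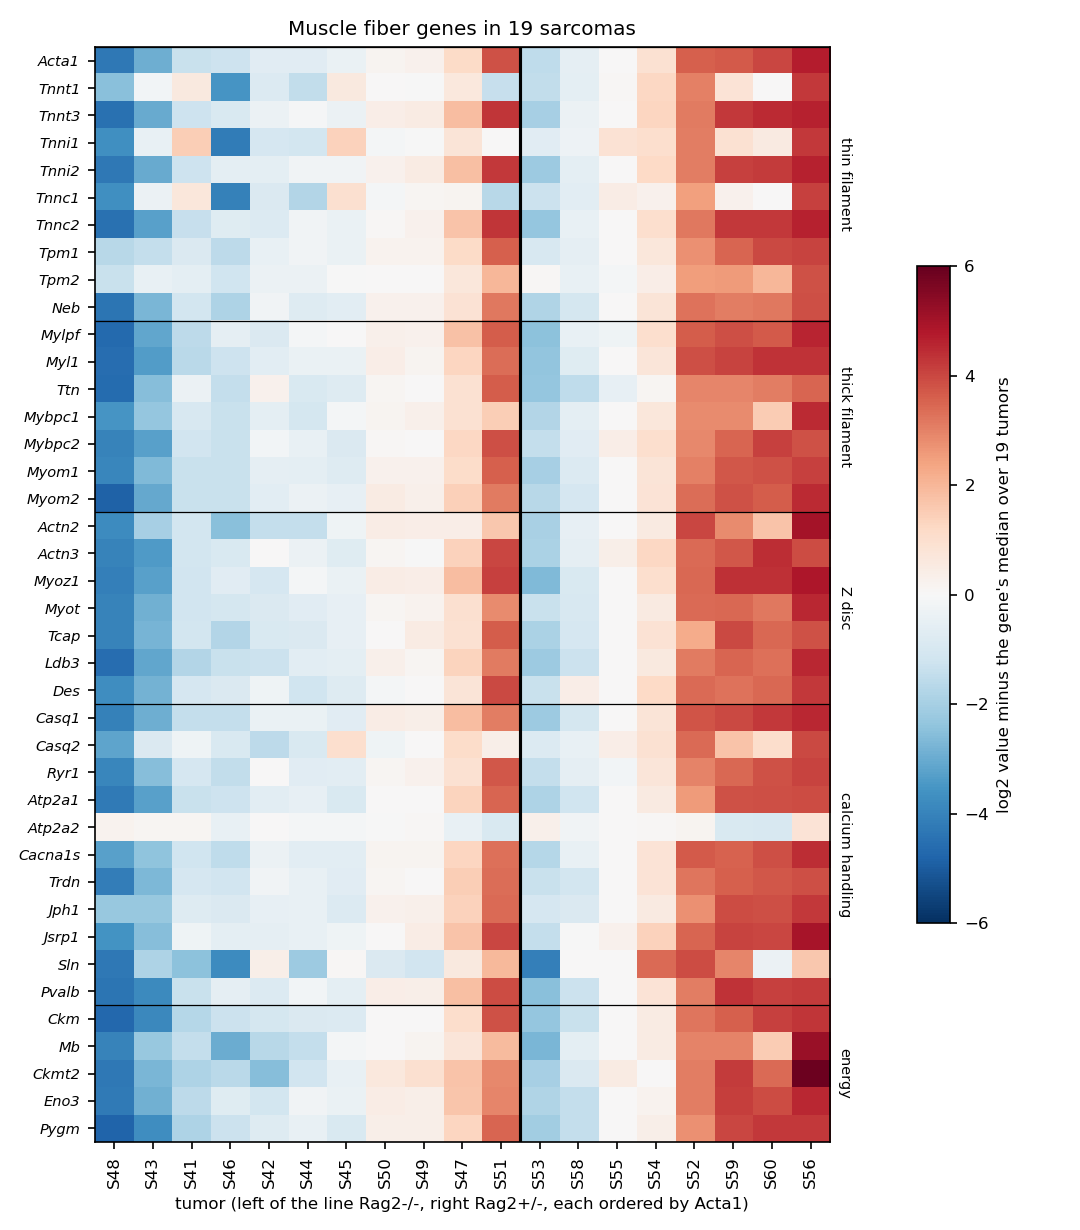
The 40 genes (rows, grouped by role) in 19 tumors (columns, *Rag2-/-* left and *Rag2+/-* right of the line, each ordered by *Acta1*); color gives the log2 value minus the gene's median over the 19 tumors. The columns S51, S52, S59, S60 and S56 are red for most rows, S48 and S43 are blue, and *Atp2a2* is pale throughout.

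Across the 19 tumors the members varied far more than most genes. Their median standard deviation (SD) was 2.35 log2 units, against 0.52 over the 12826 genes with a mean log2 value above 0, and 17 members stood among the 128 genes with the largest SD. The highest tumor exceeded the lowest by over 100-fold in FPKM in 37 members, and by 505-fold for *Acta1*. *Ckmt2*, *Myoz1*, *Ckm*, *Tnnc2* and *Pvalb* had the largest SDs, from 2.63 to 2.67, and *Ckmt2* spanned 1267-fold. *Atp2a2*, *Tpm2*, *Casq2*, *Tnnt1* and *Tnnc1* had the smallest, from 0.46 to 1.86, and *Atp2a2* spanned 3.48-fold.

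The design compares tumors grown without and with mature T and B cells. In a limma fit over all 12826 genes, 0 of the 40 members passed an adjusted p of 0.05, where 0.0312% of all genes (4 genes) did, and the lowest adjusted p of a member was 0.301. Those 4 genes were named after their values were seen and are the immunoglobulin genes *Igkc* and *Igha* and the lymphocyte genes *Tnfrsf18* and *Cd2*, all lower in *Rag2-/-* tumors. The mean of 40 of 40 members was lower in *Rag2-/-* tumors, where 43.8% of all genes were, except that *Atp2a2* turned to the other direction in the 15 tumors of the study's own comparison, after quantile normalization and without S51, S53 or S56. At an unadjusted limma p under 0.05, 34 of 40 members were lower in *Rag2-/-* tumors, as were 9.56% of all genes (16.3% passed in either direction), and the other 6 were *Mylpf*, *Tnni2*, *Ttn*, *Myoz1*, *Atp2a2* and *Pvalb*. The median difference (*Rag2-/-* minus *Rag2+/-*, as for all differences given) over the members was −2.16 log2 units, against 0.06 over all genes tested. A median shift of each tumor left it at −2.16, but the tumor medians already lay within 0.0337 of each other, so it could hardly move. After quantile normalization it was −1.76. There 25 members were lower at an unadjusted limma p under 0.05, as were 1140 of 12826 genes. The members varied together from tumor to tumor, so their counts are not separate pieces of evidence. The genotypes overlapped in all 40 members, with S51 near the highest *Rag2+/-* tumors for most genes and S53 (*Rag2+/-*) among the lower *Rag2-/-* tumors. Overlap was not counted over all genes tested, so this describes the members only.

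The count of 34 moved with single tumors, and so did the share of all genes lower at an unadjusted limma p under 0.05, given in parentheses. The count was 5 without S56 (3.35% of all genes), 12 without S59 (3.76%) or S52 (5.49%), and 14 without S60 (4.15%) or S48 (6.89%). It was 16 without S43 (6.53%), 22 without S46 (9.16%) and at most 39, without S53 (14.3%). In the 15 tumors of the study's own comparison, which leaves out S41, S46, S51 and S56, it was 21 (11.1%). The study's methods state that samples failing quality control or short of RNA or DNA were removed, without naming tumors. *Xist*, the transcript that marks the inactive X chromosome, also moved with the members. All 5 tumors above the *Acta1* gap had *Xist* at or below −1.83, while 10 of the 14 below it had values of 3.0 or more. Of the 10 tumors with *Xist* above 0, 7 were *Rag2-/-*, and of the 9 below 0, 4 were. With *Xist* as a covariate, 7 members had an unadjusted p under 0.05 in limma (3.62% of all genes in that direction) and the median member difference was −1.52. Within the 10 tumors with *Xist* above 0 it was −0.84, with 0 members at an unadjusted p under 0.05 (2.37% of all genes) and 0 at an adjusted p under 0.05. Within the 9 below 0 it was −2.14, with 5 members at an unadjusted p under 0.05 (2.52% of all genes). In each of these fits the genotype difference was below 0 for all 40 members. Among all genes it was below 0 for 5932 of 12826 with *Xist* as a covariate. Within tumors with *Xist* above 0 and below 0 these were 6211 of 12829 and 5997 of 12807.

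**Figure D3:**
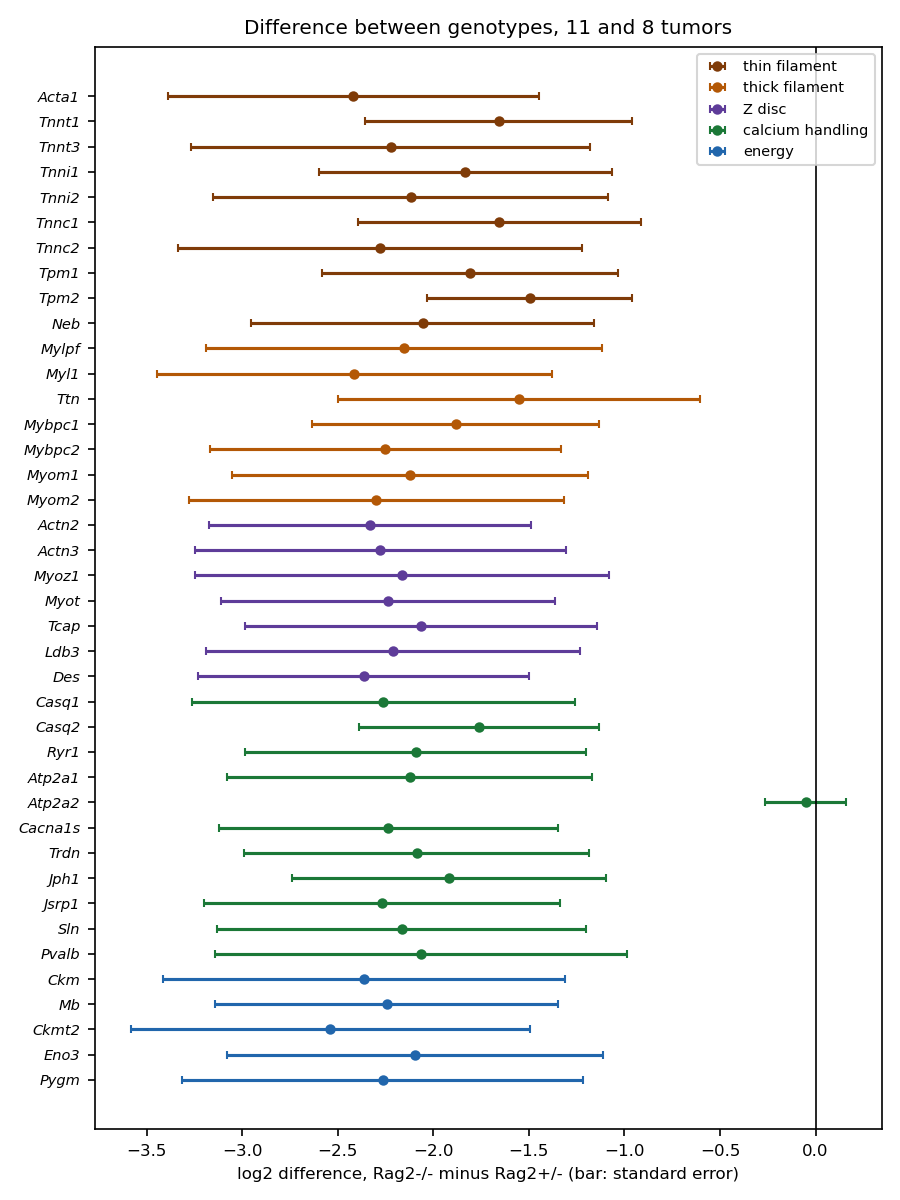
Difference in mean log2 value, *Rag2-/-* (11 tumors) minus *Rag2+/-* (8 tumors), for the 40 genes (rows, colored by role), with the limma standard error as a bar. 39 genes lie between −2.54 and −1.5, and *Atp2a2* lies at −0.05.

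Among thin filament genes, *Acta1* ranged from 6.38 to 14.5 in *Rag2-/-* tumors (median 9.99) and from 9.17 to 15.36 in *Rag2+/-* tumors (median 12.9). The ranges overlapped over most of their length, and the difference in means was −2.42 ± 0.97 (SE). *Tpm1* and *Tpm2* encode tropomyosins, which lie along actin and are also made in other mesenchymal cells. For *Tpm1*, values ran from 8.52 to 13.77 in *Rag2-/-* tumors (median 9.78) and from 9.24 to 14.23 in *Rag2+/-* tumors (median 11.9). *Tpm2* lay between 7.41 and 10.74 with a median of 8.4 in *Rag2-/-* tumors, and between 8.32 and 12.56 with a median of 9.94 in *Rag2+/-* tumors. *Tpm2* had the smallest spread of the thin filament genes, with an SD of 1.41, and its difference of −1.5 ± 0.54 had one of the 5 lowest unadjusted p-values of the members in limma, 0.0113 (adjusted p = 0.301). *Neb* had a median of 5.28 in *Rag2-/-* tumors (lowest 1.55, highest 9.09) and of 7.84 in *Rag2+/-* tumors (lowest 4.14, highest 9.77). *Neb* encodes nebulin, the giant protein that runs along the thin filament, and differed by −2.06 ± 0.9.

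The troponin complex places troponin T on tropomyosin, uses troponin I to hold actin off myosin, and senses calcium through troponin C. Of the fast isoforms, *Tnnt3* ranged from 5.47 to 14.22 in *Rag2-/-* tumors (median 9.6) and from 7.95 to 14.54 in *Rag2+/-* tumors (median 12.14). *Tnni2* lay between 5.1 and 13.64 with a median of 9.17 in *Rag2-/-* tumors, and between 7.22 and 14.03 with a median of 11.53 in *Rag2+/-* tumors. *Tnnc2* had a median of 8.82 in *Rag2-/-* tumors (lowest 4.73, highest 13.5) and of 11.31 in *Rag2+/-* tumors (lowest 6.92, highest 13.83). All 3 reached 13.46 or more in S51, S59 and S60, and their highest tumor was S56. *Tnnt3* (GRCm38, chr7:142498836-142516009) and *Tnni2* (chr7:142441808-142444410) lie near each other, both on the plus strand.

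The slow isoforms were far lower. *Tnnt1* ranged from 0.67 to 4.83 in *Rag2-/-* tumors (median 4.03) and from 2.71 to 8.45 in *Rag2+/-* tumors (median 4.64). *Tnni1* lay between −1.49 and 4.19 with a median of 2.57 in *Rag2-/-* tumors, and between 2.02 and 6.95 with a median of 3.6 in *Rag2+/-* tumors. *Tnnc1* had a median of 2.84 in *Rag2-/-* tumors (lowest −0.87, highest 4.15) and of 3.44 in *Rag2+/-* tumors (lowest 1.89, highest 7.26). S46 (*Rag2-/-*) was the lowest tumor for all 3, at 0.67, −1.49 and −0.87, with an estimated 39, 14 and 8 fragments, although its fast troponins lay at 8.48 to 9.02, within the range of the other tumors. S52 and S56 held the highest slow troponin values, 5.62 to 8.45, whereas S51, with *Tnnt3* at 14.22, had *Tnnt1* at 2.83 and *Tnnc1* at 1.5. The differences between genotypes were −1.66 ± 0.7 for *Tnnt1*, −1.83 ± 0.77 for *Tnni1* and −1.65 ± 0.74 for *Tnnc1*. Thin filament genes other than *Tnni2*, 9 of 10, had an unadjusted limma p under 0.05. In that direction 9.56% of all genes did.

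Thick filament genes covered the myosin light chains and the proteins that order myosin. *Mylpf* ranged from 4.8 to 13.1 in *Rag2-/-* tumors (median 9.37) and from 7.01 to 14.08 in *Rag2+/-* tumors (median 11.82). *Myl1* lay between 4.67 and 12.63 with a median of 8.85 in *Rag2-/-* tumors, and between 6.91 and 13.62 with a median of 11.55 in *Rag2+/-* tumors. Both are light chains of fast myosin, and S48 was their lowest tumor. *Mybpc2* had a median of 6.72 in *Rag2-/-* tumors (lowest 3.18, highest 11.03) and of 9.12 in *Rag2+/-* tumors (lowest 5.74, highest 11.26). *Mybpc1* ranged from 1.91 to 6.94 in *Rag2-/-* tumors (median 4.87) and from 3.72 to 9.94 in *Rag2+/-* tumors (median 6.55). They encode the fast and slow forms of myosin binding protein C, and the slow form had the narrowest spread of the thick filament genes, with an SD of 1.93. *Ttn* lay between −1.57 and 6.65 with a median of 2.68 in *Rag2-/-* tumors, and between 0.71 and 6.55 with a median of 4.57 in *Rag2+/-* tumors. *Ttn* encodes titin, the spring that joins the Z disc to the M band, and was the only thick filament member besides *Mylpf* with an unadjusted p above 0.05 in limma (0.117, adjusted p = 0.369). *Myom1* had a median of 3.89 in *Rag2-/-* tumors (lowest 0.56, highest 8.1) and of 6.41 in *Rag2+/-* tumors (lowest 2.48, highest 8.61). *Myom2* ranged from −0.63 to 7.36 in *Rag2-/-* tumors (median 3.71) and from 2.57 to 8.71 in *Rag2+/-* tumors (median 6.31). These M band proteins crosslink myosin tails, and *Myom2*, at −0.63 in S48 and 8.71 in S56, spanned 772-fold. The 7 differences ran from −2.41 (*Myl1*) to −1.55 (*Ttn*).

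Z disc genes anchor thin filaments and the surrounding cytoskeleton. *Actn2* ranged from 0.84 to 6.24 in *Rag2-/-* tumors (median 3.51) and from 2.68 to 9.61 in *Rag2+/-* tumors (median 5.73). *Actn3* lay between 4.12 and 12.15 with a median of 7.8 in *Rag2-/-* tumors, and between 6.25 and 12.55 with a median of 10.47 in *Rag2+/-* tumors. The alpha-actinins crosslink actin at the Z disc, *Actn3* in fast fibers and *Actn2* in all fibers and in the heart. *Actn2* differed by −2.33 ± 0.84 with an unadjusted limma p of 0.0121, and its highest tumors were S56 and S52. *Des* had a median of 6.74 in *Rag2-/-* tumors (lowest 3.78, highest 11.44) and of 9.74 in *Rag2+/-* tumors (lowest 6.15, highest 11.72). *Des* encodes desmin, the intermediate filament of muscle, and differed by −2.37 ± 0.87 with an unadjusted limma p of 0.0129. *Myot* ranged from 1.0 to 7.83 in *Rag2-/-* tumors (median 4.32) and from 3.67 to 9.54 in *Rag2+/-* tumors (median 6.85). *Myot* encodes myotilin, which binds alpha-actinin, and differed by −2.24 ± 0.88 with an unadjusted limma p of 0.0191. The adjusted p was 0.301 for all 3.

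Of the other Z disc genes, *Myoz1* lay between 2.06 and 10.23 with a median of 5.76 in *Rag2-/-* tumors, and between 3.52 and 10.99 with a median of 8.37 in *Rag2+/-* tumors. *Tcap* had a median of 6.99 in *Rag2-/-* tumors (lowest 3.84, highest 11.48) and of 9.4 in *Rag2+/-* tumors (lowest 5.93, highest 11.82). *Ldb3* ranged from 1.05 to 8.72 in *Rag2-/-* tumors (median 5.0) and from 3.43 to 10.15 in *Rag2+/-* tumors (median 7.47). *Myoz1* encodes a calcineurin-binding protein of fast fibers, *Tcap* the titin cap and *Ldb3* a protein that holds alpha-actinin. *Tcap* was highest in S59, and the other 6 Z disc genes were highest in S56 or, for *Actn3*, in S60. The 7 differences ran from −2.37 to −2.06, and *Myoz1* alone had an unadjusted p above 0.05 (0.0594 in limma, adjusted p = 0.315).

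Calcium handling genes release, store and pump calcium around the filaments. *Ryr1* ranged from 0.75 to 8.38 in *Rag2-/-* tumors (median 4.03) and from 3.23 to 8.71 in *Rag2+/-* tumors (median 6.53). *Cacna1s* lay between 0.59 and 7.16 with a median of 3.25 in *Rag2-/-* tumors, and between 2.16 and 8.29 with a median of 6.04 in *Rag2+/-* tumors. *Ryr1* is the release channel of the sarcoplasmic reticulum and *Cacna1s* the voltage sensor that opens it. *Trdn* had a median of 3.88 in *Rag2-/-* tumors (lowest 0.21, highest 7.69) and of 6.35 in *Rag2+/-* tumors (lowest 2.99, highest 8.2). *Jph1* ranged from 0.45 to 6.13 in *Rag2-/-* tumors (median 2.25) and from 1.76 to 6.99 in *Rag2+/-* tumors (median 4.37). *Jsrp1* lay between 0.86 and 8.47 with a median of 4.18 in *Rag2-/-* tumors, and between 3.0 and 9.4 with a median of 6.88 in *Rag2+/-* tumors. Triadin, junctophilin and the product of *Jsrp1* build the junction between both membranes. Differences of these 5 genes ran from −2.27 to −1.92, with unadjusted limma p under 0.05 for each, as for 9.56% of all genes in that direction.

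The calcium pumps differed sharply from each other. For *Atp2a1*, the pump of fast fibers, values ranged from 5.08 to 12.8 in *Rag2-/-* tumors (median 8.7) and from 7.46 to 13.24 in *Rag2+/-* tumors (median 10.88). *Atp2a2* lay between 5.45 and 6.58 with a median of 6.36 in *Rag2-/-* tumors, and between 5.4 and 7.19 with a median of 6.4 in *Rag2+/-* tumors. *Atp2a2* encodes the pump of slow fibers and heart, with a form made in most cells. Its difference was −0.05 ± 0.21, with an unadjusted limma p of 0.809, and its 3 lowest values, 5.40 to 5.45, came from S60, S59 and S51, tumors with high *Atp2a1*. Its highest value, 7.19, came from S56, where *Atp2a1* was also highest.

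Sarcolipin, from *Sln*, restrains the pump. *Sln* had a median of 3.06 in *Rag2-/-* tumors (lowest −0.09, highest 6.13) and of 5.02 in *Rag2+/-* tumors (lowest 0.1, highest 8.11). Its highest tumors were S52 (8.11) and S54 (7.59), the latter outside the 5 tumors above the *Acta1* gap, and S60 had only 3.85. *Casq1* ranged from 2.04 to 9.19 in *Rag2-/-* tumors (median 5.7) and from 3.92 to 10.65 in *Rag2+/-* tumors (median 8.38). *Casq2* lay between −2.14 and 2.14 with a median of 0.78 in *Rag2-/-* tumors, and between 0.22 and 4.98 with a median of 2.01 in *Rag2+/-* tumors. Calsequestrin stores calcium, *Casq1* in fast fibers and *Casq2* in slow fibers and heart, and *Casq2* had the lowest unadjusted limma p of the members (0.0110, adjusted p = 0.301, difference −1.76 ± 0.63). *Pvalb* had a median of 8.44 in *Rag2-/-* tumors (lowest 4.6, highest 12.9) and of 10.94 in *Rag2+/-* tumors (lowest 6.48, highest 13.32). *Pvalb* encodes parvalbumin, the calcium buffer of fast fibers, and differed by −2.06 ± 1.08 with an unadjusted limma p of 0.0699.

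Energy genes were led by *Ckm*, muscle creatine kinase, which regenerates ATP at the filaments. *Ckm* lay between 5.54 and 14.06 with a median of 9.38 in *Rag2-/-* tumors, and between 7.94 and 14.53 with a median of 12.11 in *Rag2+/-* tumors. *Ckmt2* ranged from 0.07 to 7.21 in *Rag2-/-* tumors (median 3.2) and from 2.36 to 10.23 in *Rag2+/-* tumors (median 6.13). *Ckmt2*, the mitochondrial creatine kinase, had the largest difference of all members, −2.54 ± 1.05. *Eno3* had a median of 7.39 in *Rag2-/-* tumors (lowest 3.53, highest 10.72) and of 9.43 in *Rag2+/-* tumors (lowest 5.96, highest 12.3). *Pygm* lay between 2.46 and 10.75 with a median of 6.48 in *Rag2-/-* tumors, and between 5.18 and 11.52 with a median of 8.82 in *Rag2+/-* tumors. *Mb* ranged from 3.5 to 9.41 in *Rag2-/-* tumors (median 6.09) and from 4.79 to 12.69 in *Rag2+/-* tumors (median 8.51). *Eno3* encodes the glycolytic enolase of muscle, *Pygm* glycogen phosphorylase and *Mb* the oxygen store myoglobin, which was highest in S56 at 12.69, above the 10.49 of S52. All 5 energy genes had an unadjusted limma p under 0.05, as did 9.56% of all genes in that direction. Without S56 the count over all 40 members fell from 34 to 5 (3.35% of all genes).

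**Figure D4:**
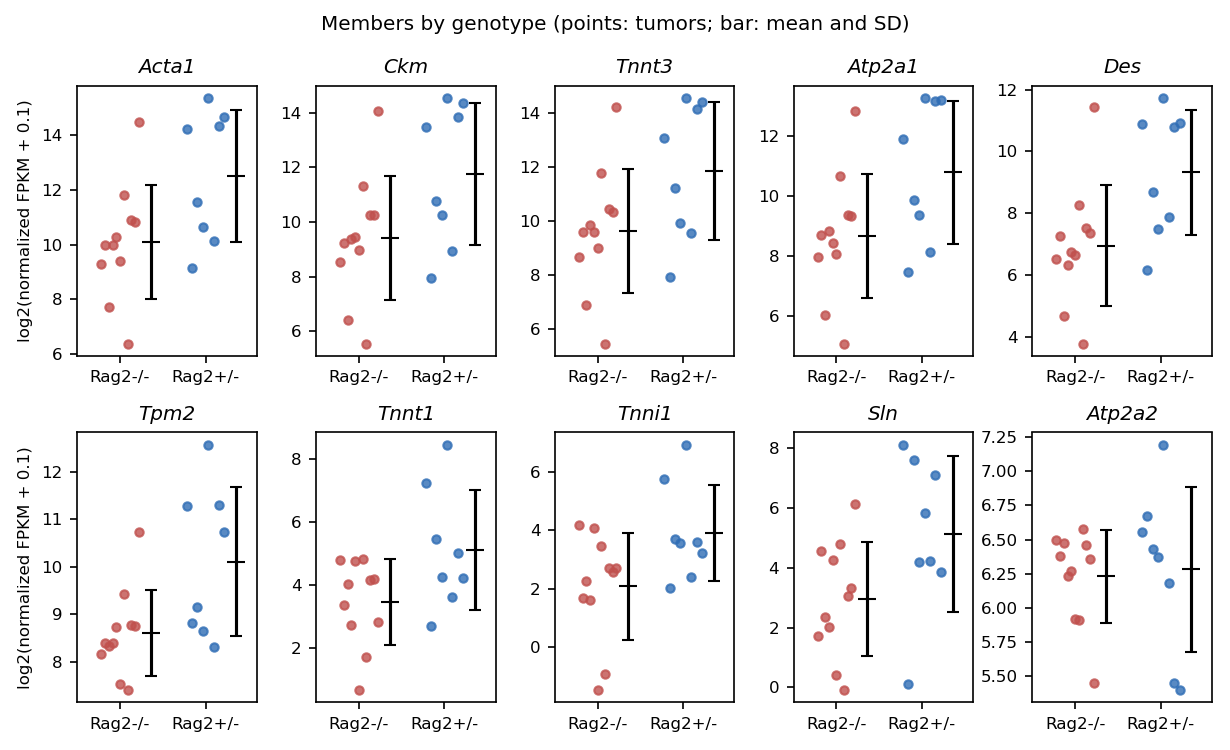
Values of 10 members by genotype (vertical axes, log2 of normalized FPKM plus 0.1; points are tumors, red *Rag2-/-* with 11 and blue *Rag2+/-* with 8; bars give the mean and SD). For each gene the genotypes overlap, and for *Acta1* S51 (14.50) stands with the 4 high *Rag2+/-* tumors (14.24 to 15.36).

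Fast and slow isoforms of a tumor were compared as log2 ratios of their FPKM-based values. *Tnnt3* exceeded *Tnnt1* in 19 of 19 tumors, by a median of 6.09 log2 units (68.3-fold), *Tnni2* exceeded *Tnni1* by 7.08 (136-fold) and *Tnnc2* exceeded *Tnnc1* by 6.22 (74.5-fold), also in 19 of 19. *Casq1* exceeded *Casq2* by 5.42, *Actn3* exceeded *Actn2* by 3.57 and *Mybpc2* exceeded *Mybpc1* by 1.75, in 19 of 19 tumors each. *Atp2a1* exceeded *Atp2a2* in 17 of 19, by a median of 2.90, and was the lower of the pair in S43 (−0.44) and S48 (−1.5).

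These ratios spread widely among tumors. The 3 troponin ratios were highest in S51, at 11.39 for troponin T and 10.94 for troponin I, and S60 and S59 followed for troponin T, at 10.18 and 9.14. S52 and S56, with *Tnnt3* at 13.07 and 14.54, had ratios of 5.84 and 6.09 for that pair. The lowest were 2.88 for *Tnnt3* to *Tnnt1* and 3.10 for *Tnnc2* to *Tnnc1*, both in S43, and 3.94 for *Tnni2* to *Tnni1* in S41.

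Between genotypes no ratio passed the test. The mean *Atp2a1* to *Atp2a2* ratio was 2.43 ± 2.34 (SD, n = 11) in *Rag2-/-* and 4.5 ± 2.61 (SD, n = 8) in *Rag2+/-* tumors. The difference was −2.07 (exact permutation test, two-sided p = 0.0881, adjusted over 7 ratios 0.617). As *Atp2a2* itself differed by only −0.05, this nearly repeats the *Atp2a1* difference of −2.12. The other 6 differences were −0.56 for *Tnnt*, −0.29 for *Tnni*, −0.63 for *Tnnc*, −0.50 for *Casq*, −0.37 for *Mybpc* and 0.05 for *Actn*, with adjusted exact permutation p from 0.821 to 0.922. That of *Actn3* to *Actn2* turned to −0.49 in the 15 tumors of the study's own comparison and to −0.04 with 1 added in place of 0.1, and that of *Tnni2* to *Tnni1* to 0.0212 without S41. Single tumors also moved the sizes of the others. The *Tnnt* difference was −0.0712 without S60, −1.09 without S51 and −1.3 in those 15 tumors, and the *Tnnc* difference was −0.179, −1.17 and −1.42. Without S60, *Casq* was at −0.113 and *Mybpc* at −0.0642, and *Mybpc* was at −0.76 in the 15 tumors.

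**Figure D5:**
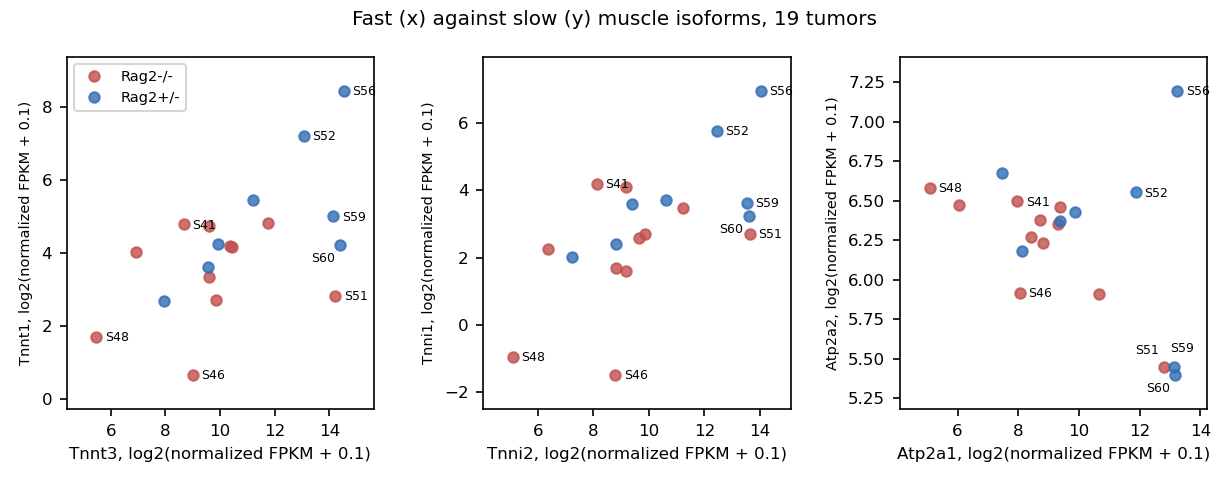
Slow isoform (vertical) against fast isoform (horizontal) in 19 tumors, both as log2 of normalized FPKM plus 0.1, for troponin T, troponin I and the calcium pump (red *Rag2-/-*, blue *Rag2+/-*). S46 lies below the other tumors for both troponins, S52 and S56 lie highest, and S51, S59 and S60 have the lowest *Atp2a2* (5.40 to 5.45).

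Co-variation was measured within the 14 tumors below the *Acta1* gap, since all 19 fell into separate clusters. *Acta1* followed *Ckm* with Pearson r = 0.99 (Spearman rho = 0.96), *Atp2a1* with r = 0.98 (rho = 0.95) and *Des* with r = 0.96 (rho = 0.91), each with a permutation p adjusted over 10 pairs of 2.5e-05 for r and for rho. It followed *Ttn* with r = 0.92 and rho = 0.77 (adjusted permutation p = 4e-05 and 0.00338), *Tpm1* with r = 0.90 and rho = 0.95 (2.5e-05 for both) and *Sln* with r = 0.74 and rho = 0.77 (0.00353 and 0.00338). Without S43 and S48, the tumors farthest from the median on the first gene of each pair, these 6 r values were 0.76 to 0.97. Within the 10 *Rag2-/-* tumors alone they were 0.74 to 0.99, and the 4 *Rag2+/-* tumors were too few for a value.

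Fast and slow isoforms were less tightly tied. *Tnnt3* and *Tnnt1* had r = 0.55 and rho = 0.64 (adjusted permutation p = 0.0622 and 0.0248), *Tnni2* and *Tnni1* r = 0.51 and rho = 0.48 (0.0713 and 0.0983), and *Tnnc2* and *Tnnc1* r = 0.50 and rho = 0.45 (0.0713 and 0.103). Without S43 and S48 the r values were 0.54, 0.28 and 0.31. *Atp2a1* and *Atp2a2* had r = −0.48 and rho = −0.50 (adjusted permutation p = 0.0844 and 0.0855), and −0.32 without S43 and S48. Whether the r of these pairs differs from that of *Acta1* with *Ckm* was not tested.

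Over all 780 pairs of members, r had a median of 0.93 and exceeded 0.9 in 57.3%, as a description, since the pairs share tumors and genes. It was below 0 in 36 pairs, all with *Atp2a2*, whose median r with the other members was −0.43. *Tnnt1*, *Tnnc1* and *Tnni1* had medians of 0.57, 0.57 and 0.58, *Sln* 0.71, *Tpm2* 0.76 and *Casq2* 0.79, and *Myom1* had the highest, 0.98. The first component of the members held 86.4% of their variance over the 14 tumors. The first component of all tested genes, computed separately, held 31.2% of theirs.

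Among the 10 other genes that tracked the mean of the standardized members most closely over the 19 tumors were *Smyd1*, *Nrap*, *Alpk3*, *Eef1a2*, *Cavin4*, *Fbxo40*, *Srl* and *Synpo2l*. Within the 14 tumors their r was 0.96 to 0.99. *Smyd1*, a methyltransferase of striated muscle, lay at 6.88 to 8.16 in the 5 tumors above the *Acta1* gap and at −0.47 to 5.08 in the other 14. *Eef1a2*, the elongation factor of muscle and nerve, lay at 9.25 to 10.24 and at 1.79 to 7.03.

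A separate list of 60 other muscle fiber genes, among them the fast and slow myosin heavy chains, gave 59 with the lower mean in *Rag2-/-* tumors (43.8% of all genes), 48 with an unadjusted p under 0.05 in that direction (9.56% of all genes) and 0 with an adjusted p under 0.05 in limma, with a median difference of −2.13. The count of 48 was 14 without S56 (3.35% of all genes), 19 without S52 (5.49%), 21 without S59 (3.76%), 23 without S60 (4.15%) and 29 without S48 (6.89%). It was 15 with *Xist* as a covariate (3.62% of all genes), and 0 and 10 within tumors with *Xist* above (2.37%) and below 0 (2.52%). The lowest p-values belonged to *Smtnl1* (−2.49 ± 0.80), *Hspb7*, a small heat shock protein (−2.70 ± 0.93), and *Klhl40*, which stabilizes nebulin (−2.36 ± 0.81), all SE and all with an adjusted limma p of 0.301. Their summed FPKM was 18027 to 37097 in the 5 tumors above the *Acta1* gap and 386 to 5079 in the other 14.

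Markers of other cell types were summed in each tumor. Between the 5 tumors above the *Acta1* gap and the other 14, given in that order and without a test, the summed FPKM of 4 cell cycle genes was 8.12 to 63.4 and 72.7 to 220, and that of 6 fibroblast genes 1069 to 2801 and 3060 to 6340. The 8 satellite cell and myoblast genes summed to 16.6 to 50.4 and to 0.47 to 16.7, with a narrow overlap. Sums also overlapped for 5 macrophage genes (457 to 1315 and 859 to 2683), 5 T cell genes (0.80 to 25.3 and 0.50 to 29.9) and 3 adipocyte genes (1.20 to 102 and 0 to 928). So did those of 5 smooth muscle genes (69.4 to 239 and 142 to 1812) and 6 heart genes (3.37 to 22.3 and 0.40 to 7.04). The heart markers *Myh6*, *Nppa*, *Myl7* and *Mybpc3* stayed at or below −0.45 in every tumor. Of the other 2 heart genes, *Tnni3* reached 0.75, and *Tnnt2*, heart troponin T, reached 2.78 in *Rag2-/-* tumors (median 0.18) and 4.33 in *Rag2+/-* tumors (median 2.16), a difference of −1.41 ± 0.75 (SE, adjusted limma p = 0.33). The part of host muscle in these values was not tested, and in bulk RNA fewer muscle fibers and less RNA per fiber cannot be told apart.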

How the data were processed

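RNA from 19 tumors, 1 library each, was sequenced as paired ends. In Array Studio the authors mapped reads with the Omicsoft aligner (mouse B38), computed FPKM for Ensembl R86 genes, scaled these by the upper quartile and deposited log2 values after adding 0.1. The submitters' processing notes list other tools, and the study's methods were followed here. Values at the floor made up 63.0% of the table, 0 pairs of libraries were identical, and 0 columns were left unmatched. As these are not counts, no count test was used.

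Depth was estimated from the steps between low values (GENCODE vM21 transcript lengths), where 82.2% to 89.1% of low values per tumor came within 0.05 of a whole fragment. Such an estimate covers counting error only, and was not turned into a test. Symbols and coordinates came from GENCODE vM21 on GRCm38, and 48349 genes had one. Promoters came from RefSeq.

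Genotypes were compared in all 19 tumors with limma (version 3.58.1, under R 4.3.3, trend on mean intensity) for the 12826 genes whose mean log2 value exceeded 0, with Benjamini-Hochberg adjustment at 0.05. Tested on simulated log2 differences added to these data for *Rag2-/-* against *Rag2+/-*, the fit recovered 89% of genes changed by 2 and 98% of those changed by 4. This was over all genes tested, with a median SD of 0.52, and does not apply to the members, whose median SD was 2.35. The p-values measure the spread between tumors. Isoform ratios were compared by two-sided exact permutation over all 75582 relabelings, and pairs by 100000 permutations, for which 1e-05 is the smallest p, over 14 tumors in place of 19 because values fell into separate clusters. Python 3.11.15 ran the rest, with scipy 1.17.1, pandas 2.3.3 and numpy 2.4.6.

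The members, lists and tests were chosen with earlier results of these data known. Named are all 40 members, the 5 with the lowest p, the 5 with the largest and the 5 with the smallest SD, the 10 other genes most and the 10 least like the members, the 3 of the 60 other muscle fiber genes with the lowest p, and marker genes, some of which are not reported here. *Xist* and the 4 genes past the threshold were named outside this rule. Alternatives were the 15 tumors of the study's own comparison, each tumor left out, quantile normalization, a median shift, a stricter filter (mean above 2) or none, pseudocounts of 0.01 and 1, other variance models and *Xist* as a covariate. Fits within tumors with *Xist* above or below 0, the use of 14 tumors and the refits for the 60 other genes were added after seeing the data. The labels pair no tumors, so no paired fit was made. Exomes were not analysed here.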

Additional observations from a re-analysis of the deposited data

Results flagged for a closer look

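The 40 members and 7 ratios were checked in the 8 *Rag2+/-* tumors for a tumor far from the others. The 11 *Rag2-/-* tumors are too many for the criterion used and were not checked. Of these 47 sets of values 1 stood out, and chance alone gives about 1 in 20. The log2 ratio of *Mybpc2* to *Mybpc1*, the fast and slow forms of myosin binding protein C, was 4.29 in S60, while the other 7 *Rag2+/-* tumors lay between 1.06 and 2.39. The gap to the nearest tumor was 0.59 of the whole range, above the 95% critical value of Dixon's test for 8 tumors. Among *Rag2-/-* tumors, S51 had a ratio of 4.08 and the other 10 lay between 0.77 and 2.3. The cause was not tested.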

How the results depend on the processing

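Over the 32 other settings, 0 members passed an adjusted p of 0.05 in limma, and the lowest adjusted p of a member was 0.0941, without S51. The number of genes past that threshold was 4, and it was 15 in the 15 tumors of the study's own comparison, 26 with no filter on low values, and 0 with a mean log2 value above 2 and within tumors with *Xist* above 0. It was 3 to 7 when each tumor was left out, with 7 without S51 or S56. Lower at an unadjusted p under 0.05 were 34 members and 9.56% of all genes. These became 21 members and 11.1% in the 15 tumors, 7 and 3.62% with *Xist* as a covariate, 0 and 2.37% within tumors with *Xist* above 0, and 5 and 2.52% within those below 0. With each tumor left out they were 5 members and 3.35% (without S56) to 39 and 14.3% (without S53). The median member difference stayed between −2.69 and −1.76 with each tumor left out.

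Of 522 single results under other settings, 512 kept their direction and their side of the threshold and 8 reversed, none of them past a threshold. The *Tnni2* to *Tnni1* difference became 0.0212 without S41 and ran from −0.679 (without S51) to 0.151 (without S60). That of *Actn3* to *Actn2* became −0.492 in the 15 tumors and −0.0375 with a pseudocount of 1, and ran from −0.155 (without S56) to 0.386 (without S60). The *Atp2a2* difference became 0.181 in the 15 tumors and 0.105 after quantile normalization, and ran from −0.178 (without S60) to 0.0783 (without S56). Without S41, r for *Tnnt3* with *Tnnt1* and for *Tnni2* with *Tnni1* became 0.59 and 0.58 (adjusted permutation p = 0.0442 for both). The cause of these shifts was not tested. S41 held the fewest fragments, and slow isoforms rest on few fragments in S46 and S48.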

Other observations

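The 10 tested genes that ran most against the members over the 19 tumors were *Gnb2*, *Sh3bp1*, *Cnot9*, *Hnrnpf*, *Gm5641*, *Arhgef2*, *Hnrnpd*, *Aacs*, *Gak* and *Cdk12*. Within the 14 tumors below the *Acta1* gap their r with the mean of the standardized members was −0.86 to −0.66. *Gnb2*, a G protein subunit, lay at 6.65 to 6.95 in the 5 tumors above the gap and at 7.17 to 7.68 in the other 14, and *Hnrnpf*, an RNA-binding protein, at 6.17 to 6.91 and at 7.35 to 8.13. The summed normalized FPKM of all genes was 605146 to 987483 in those 5 tumors and 383037 to 496721 in the others.

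Of the regulators of muscle formation, *Myod1* ranged from −2.85 to 3.14 in *Rag2-/-* tumors (median 0.27) and from −0.03 to 4.67 in *Rag2+/-* tumors (median 2.46), a difference of −2.26 ± 0.78 (SE, adjusted limma p = 0.301). *Myog* had medians of 1.06 and 2.26, with a difference of −0.99 ± 0.77 (adjusted limma p = 0.451). *Pax7*, the satellite cell factor, stayed between −3.32 and −0.74. The T cell gene *Cd3e* was at the floor of −3.32 in all *Rag2-/-* tumors and at −0.61 to 2.90 in *Rag2+/-* tumors.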
